A study of Mus musculus with 6 samples.

Results

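Ribosome biogenesis was followed through 37 genes in CD8 T cells from mouse tumours: Myc and 36 genes for nucleolar proteins that build ribosomes. The genes were listed by name for what they are known to do, with earlier results of these data in view, so their shared pattern over the clusters is not independent of the choice. All 37 were among the 15601 genes of the deposited count table. The level of each gene was taken in each of the 6 libraries and in each of the 11 clusters that the authors gave the cells, and cluster 4 was set against all other cells.

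The cells came from 3 female and 3 male replicates, which the labels call biological. All hosts were wild-type C57BL/6 mice, inoculated under the skin at 6 weeks of age per the protocol (the age label reads 6 to 8 weeks), and all carried MB49, a urothelial carcinoma cell line. Tumours were dissociated on day 10, live CD3+ CD8+ CD4- cells were sorted, and RNA was counted with a 10x Genomics 3' kit. No treatment, batch, litter or date was given, so the sexes are the only groups of the design.

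Ribosomes are made in the nucleolus. RNA polymerase I transcribes a long precursor RNA there, small nucleolar ribonucleoproteins (snoRNPs) guide its chemical modification, and large protein assemblies cut and fold it into the small (40S) and large (60S) subunits. The transcription factor MYC is known to raise the expression of many of these genes, and T cells are known to induce Myc and to enlarge their nucleoli when their antigen receptor is engaged, before they divide.

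MYC and its partner MAX bind the E-box CACGTG, which reads the same on both strands. Promoters of 31 members were found by symbol in the RefSeq table of the GRCm38.p6 build, as the 250 bases before and the 50 bases after the annotated start. Bop1, Rrp12, Myc, Npm1, Fbl and Rrs1 had no entry. CACGTG was present in 8 of the 31 (25.8%): Wdr43, Imp4, Mybbp1a, Pes1, Tsr1, Nop2, Utp20 and Grwd1. Among the 11260 genes of the count table with a promoter entry the share was 11.2%, and over all 27025 genes of the reference table it was 8.09%. Within 50 bases of the start the motif was present in 6 of 31 members (19.4%) and in 5.01% of the genes of the count table. Over the whole promoter the shares were 20% among other ribosome biogenesis genes, 40.6% among other growth genes known as Myc targets and 9.52% among cytoplasmic ribosomal protein genes. Within 50 bases of the start they were 16.8%, 9.375% and 3.175%. The GC box, GGGCGG or its complement CCGCCC, which can share an end base with the E-box, was in 77.4% of the members and in 64.4% of the genes of the count table. These matches describe letters and not binding.

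The 30 bases around the E-box are shown for the 4 such members with the highest mean level. CACGTG was chosen as the motif of the regulator among the members, and its part in their shared pattern over the clusters was not tested. Capitals mark the motif, all 4 lie on the plus strand, and the sequences are RefSeq's.
Wdr43: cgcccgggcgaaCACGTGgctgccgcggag
Imp4: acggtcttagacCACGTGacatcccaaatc
Mybbp1a: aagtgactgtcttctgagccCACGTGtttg
Pes1: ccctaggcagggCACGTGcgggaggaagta

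The Wdr43 window is chr17:71616220-71616249, that of Imp4 chr1:34439696-34439725, that of Mybbp1a chr11:72441347-72441376 and that of Pes1 chr11:3963965-3963994. Counted from the RefSeq start as position 1, the motif began at position 18 in Wdr43, 41 in Mybbp1a and 3 in Pes1, where GENCODE M21 places an exon of the gene itself. In Imp4 it began at position -121, outside the Imp4 exons and within an exon of the opposite-strand gene Gm28306.

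The table held 26698 cells (9955 female, 16743 male) and 295211042 unique molecular identifiers (UMIs), each standing for 1 captured RNA molecule. The libraries held 2121 to 7156 cells and 25562319 to 66105318 UMIs, with medians of 6397.5 to 10114.5 UMIs per cell. Cluster 4 held 2442 cells, 198 to 703 per library, which gave 2311984 to 6922786 UMIs. It was led by Il2, Il3, Ccl4, Xcl1, Ccl3, Il13, Ifng, Nr4a3, Egr2 and Tnfsf14, genes for cytokines, chemokines and early receptor-signal factors, and it carries no cell type name here. Barcodes shared between library numbers came to 84, and 15 cells of cluster 4 carried one. The CD8 T cell genes Cd3d, Cd3e, Cd3g, Cd8a and Cd8b1 summed to 3257 to 4426 CPM in cluster 4 (UMIs scaled to a library sum of 1000000), and Cd4 stood at 0.0526 CPM on average. Clusters 6 and 10 were shallow: their cells had a median of 1742 and 1461 UMIs, of which 30.03% and 20.3% were mitochondrial, while those of cluster 4 had 9648 and 4.05%.

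All 37 genes had their highest mean level in cluster 4. Across all 10632 genes with a mean of at least 1 CPM, 13.4% were highest there. For 34 members cluster 4 was the highest cluster in each of the 6 libraries, against 5.3% of those genes; the exceptions were Utp20, Nop14 and Rrp12, for which it was highest in 5 of 6. The clusters were made by the authors from these same counts, so the levels are a description and carry no test. The mean in cluster 4 was 1.19 (Npm1) to 2.82 (Nop16) times that of the second cluster, with a median of 1.77, and a median of 5.12 times that of the lowest cluster.

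**Figure D1:**
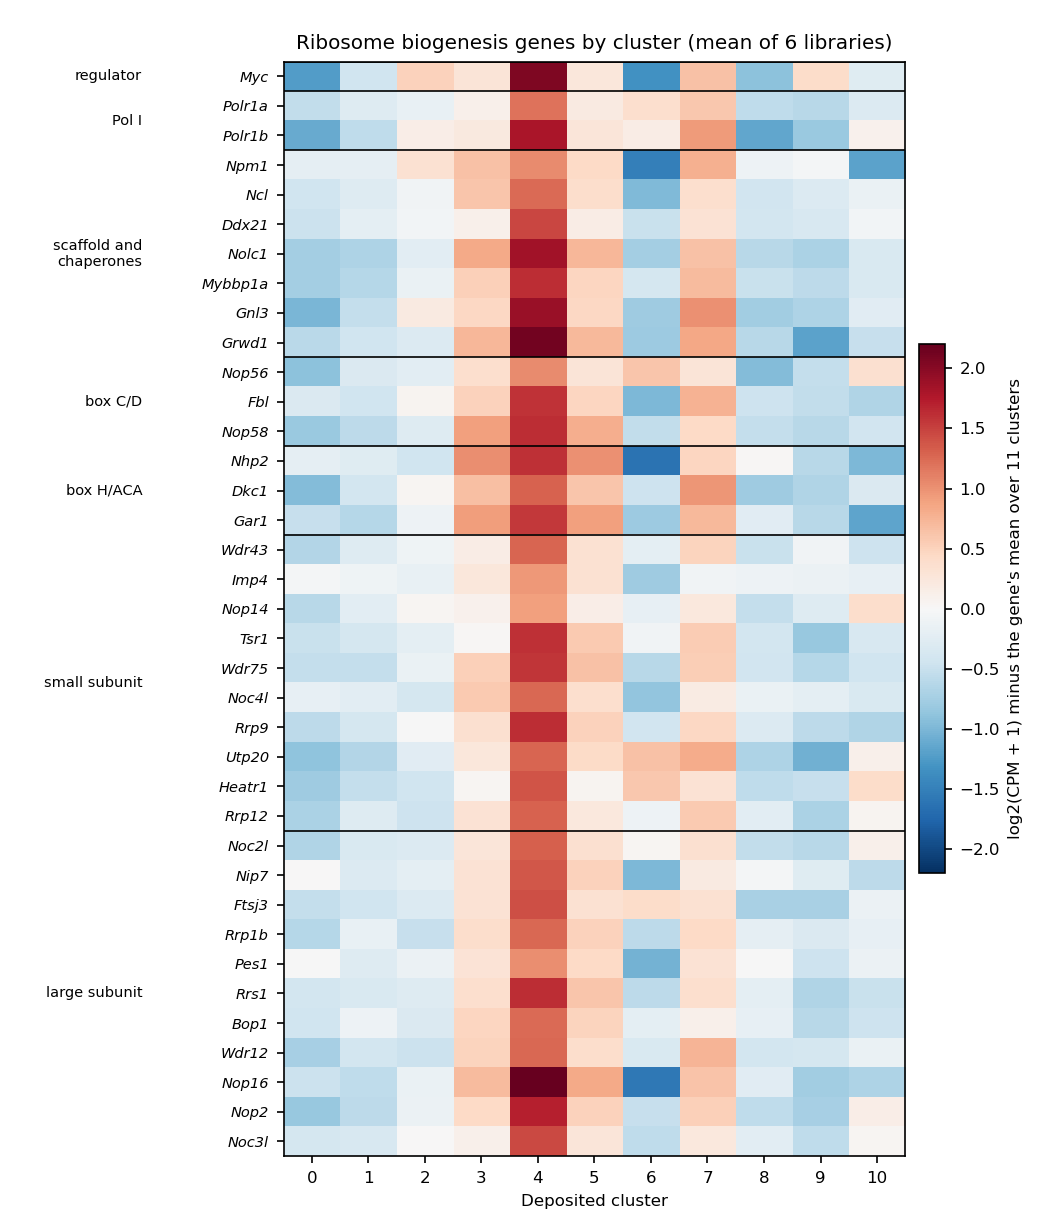
Level of the 37 genes (rows, grouped by role) in the 11 deposited clusters (columns), as log2(CPM + 1) of the mean over 6 libraries minus the gene's mean over the 11 clusters. Every row has its darkest red in cluster 4, and clusters 3, 5 and 7 come next for most genes.

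Cluster 7, led by Igfbp4 and Il6ra, was second for 16 members. Cluster 5, led by replication genes such as Ung, Mcm2 and Mcm3, was second for 11, and cluster 3, led by mitosis and histone genes such as Nusap1 and Hist1h1b, for 6. The shallow cluster 6 was second for Nop56, Heatr1 and Ftsj3, and the shallow cluster 10 for Nop14. The lowest cluster was 0 for 12 members, 6 for 11, 9 for 9, 8 for 3 and 10 for 2. For 30 members no library of cluster 4 overlapped the libraries of the second cluster, against 3.74% of the 10632 genes. For 28 the lowest library of cluster 4 lay above all 60 sums of the other clusters, against 3.09% of those genes. The 9 members with some overlap were Polr1a, Polr1b, Nop56, Dkc1, Utp20, Heatr1, Nop14, Rrp12 and Pes1.

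Summed, the 36 members without Myc made up 0.782% ± 0.0825 of the UMIs of cluster 4 (mean ± SD, n = 6 libraries). They made up 0.484% ± 0.0363 in cluster 7, 0.479% ± 0.0578 in cluster 3 and 0.444% ± 0.0402 in cluster 5. The libraries of these 3 clusters spanned 0.399% to 0.586% and did not overlap those of cluster 4, which spanned 0.677% to 0.914%. The shares were lower in cluster 2 (0.334% ± 0.0091), in clusters 1 and 9 (each 0.265%), in clusters 8 (0.260%) and 0 (0.246%) and in the shallow clusters 10 (0.230%) and 6 (0.184%). Neighbours in this order from cluster 7 to 5 and from 1 to 6 overlapped.

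Myc (chr15:61985391-61990374, plus strand, GRCm38), is the transcription factor of the group. Its level in cluster 4 was lowest at 76.3, median 96.4 and highest at 111 CPM over the 6 libraries. In cluster 7, the next highest, the libraries spanned 21.4 to 48.4 CPM, and in cluster 2 they spanned 19.3 to 37.7. Clusters 9, 3 and 5 followed with means of 29.8, 27.1 and 26.7 CPM, which overlapped one another and clusters 7 and 2. Clusters 10 and 1 had 18.2 and 16.1 CPM, cluster 8 had 11.5, cluster 0 had 8.90 and cluster 6 had 8.24. No library of any other cluster reached the lowest library of cluster 4.

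Against all other cells of the same library pooled, every member was higher in cluster 4 in 6 of 6 libraries. Over all 15178 genes with a count, 17.6% were. The mean log2 ratio, taken on CPM + 1, had a median of 1.34 over the 37 members and -0.05 over all genes. It was at least 1 in 33 members, against 2.17% of all genes, and the lowest library of cluster 4 lay above the highest library of the other cells for all 37, against 10.7% of all genes. Myc, with 76.3 to 111 CPM in cluster 4 and 16.1 to 26.9 CPM in the other cells, had the largest ratio among the members, 2.09 ± 0.12 (SD, n = 6 libraries).

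The median over the members lay between 1.21 (female library 2) and 1.53 (female library 6). The SD of a single member over the libraries ran from 0.06 (Nop56) to 0.31 (Heatr1). After Myc the largest ratios were those of Nop16, a factor of early 60S assembly, at 2.04 ± 0.14, and of Grwd1, a WD-repeat chaperone of the nucleolus, at 1.91 ± 0.23. The smallest were those of Npm1 at 0.76 ± 0.08, Imp4 at 0.88 ± 0.11 and Pes1 at 0.89 ± 0.13. Nop14, at 0.99 ± 0.08, lay just below 1, and Nop56, at 1.10 ± 0.06, was the next above it.

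**Figure D2:**
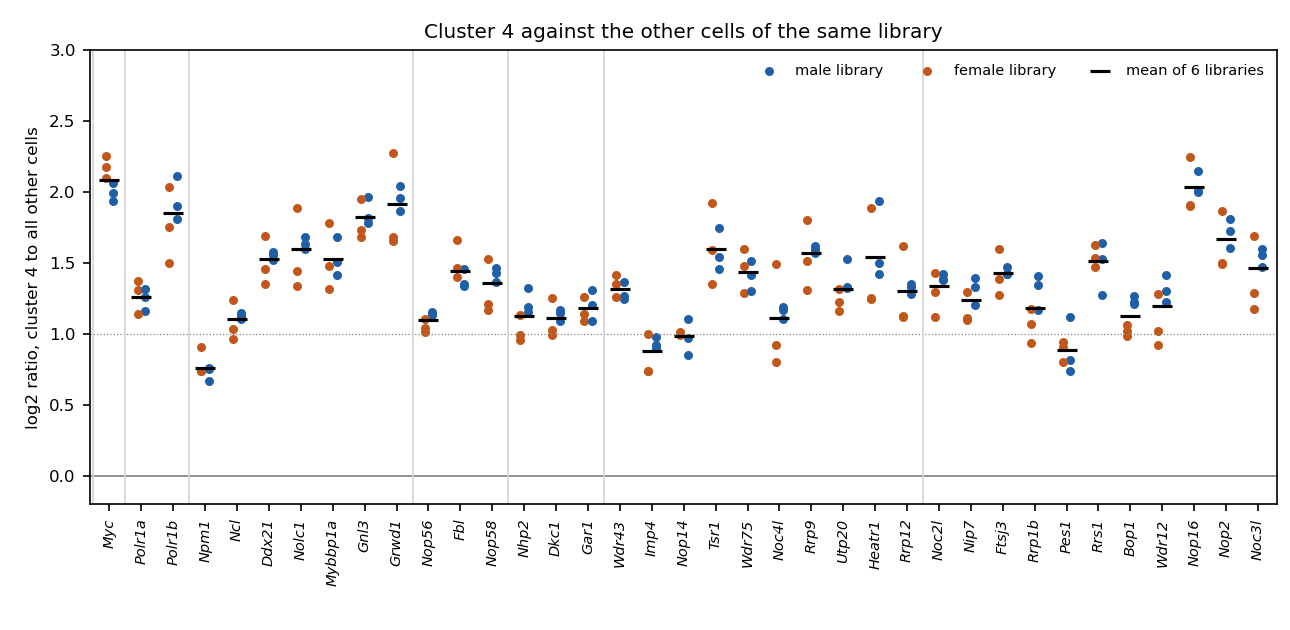
Log2 ratio of each member between cluster 4 and all other cells of the same library, taken on CPM + 1; each point is a library (orange female, blue male), the bar is the mean of 6, and grey lines part the roles. All 222 points lie above 0, the mean ratio runs from 0.76 for Npm1 to 2.09 for Myc, and the dotted line marks 1.

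RNA polymerase I was represented by its 2 large subunits. Polr1a (chr6:71909053-71984935, plus strand), which forms the catalytic centre together with Polr1b, had 32.9 to 52.3 CPM in cluster 4 (median 40.8) and 14.0 to 22.0 CPM in the other cells (median 16.2), a ratio of 1.26 ± 0.09. Polr1b (chr2:129100995-129126594, plus strand) had 16.4 to 35.5 CPM in cluster 4 (median 27.7) and 4.62 to 8.80 in the other cells (median 6.08), a ratio of 1.85 ± 0.22. Both were second highest in cluster 7, whose libraries overlapped those of cluster 4.

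The 7 scaffold and chaperone proteins of the nucleolus had a median ratio of 1.53. Npm1, nucleophosmin (chr11:33152287-33163206, minus strand), a chaperone of the outer nucleolus, had 2235 to 2641 CPM in cluster 4 (median 2421) and 1321 to 1564 in the other cells (median 1410). Its second cluster was 7 with 2020 ± 124 CPM, the smallest fold to a second cluster among the members, though the libraries of these clusters did not overlap. Ncl, nucleolin (chr1:86344719-86359400, minus strand), had 1339 to 1984 CPM in cluster 4 (median 1576) and 654 to 894 in the other cells (median 726), a ratio of 1.10 ± 0.09. The other 5 had larger ratios: Gnl3, nucleostemin, a GTPase of the nucleolus, 1.82 ± 0.12; Nolc1, a chaperone of snoRNPs, 1.598 ± 0.19; Mybbp1a, 1.53 ± 0.17; Ddx21, an RNA helicase that also binds polymerase I, 1.53 ± 0.12; and Grwd1 as above.

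The box C/D snoRNP methylates ribosomal RNA. Its methyltransferase Fbl, fibrillarin (chr7:28169710-28179269, plus strand), had 272 to 388 CPM in cluster 4 (median 312) and 98.0 to 153 in the other cells (median 113), a ratio of 1.45 ± 0.12. Its core protein Nop56 (chr2:130274430-130279313, plus strand) had 256 to 362 CPM in cluster 4 (median 297) and 124 to 164 in the other cells (median 135). Nop58, the partner of Nop56, had a ratio of 1.36 ± 0.14. Nop56 was high in the shallow clusters, with 220 ± 43.9 CPM in cluster 6 and 183 ± 42.3 in cluster 10, while Npm1 was lowest in both, with 413 ± 67.1 and 517 ± 117 CPM. Exons of Nop56, Ncl, Gnl3 and Nop58 overlap small RNA genes on the same strand, and those of 18 members overlap a gene on the opposite strand. Whether the counting used strand is not given in the sources used here.

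The box H/ACA snoRNP turns uridine of ribosomal RNA into pseudouridine. Nhp2 (chr11:51619735-51623714, plus strand), a core protein, had 214 to 291 CPM in cluster 4 (median 229) and 96.8 to 116 in the other cells (median 110), a ratio of 1.13 ± 0.13. Dkc1, dyskerin, the pseudouridine synthase (chrX:75095854-75109777, plus strand), had 101 to 163 CPM in cluster 4 (median 122) and 50.2 to 71.8 in the other cells (median 53.7), a ratio of 1.11 ± 0.10. Gar1 had 1.18 ± 0.09. The groups overlapped for none of the 3, and all lay below the median of the members.

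The 10 members of the small subunit pathway had a median ratio of 1.32, from 0.88 (Imp4) to 1.602 (Tsr1, which acts in late 40S maturation in the cytoplasm). Wdr43 (chr17:71615895-71659031, plus strand), a UTP protein of the processome that cuts the precursor, had 129 to 169 CPM in cluster 4 (median 158) and 53.1 to 66.2 in the other cells (median 61.4). Imp4 (chr1:34439851-34449356, plus strand), which binds the U3 snoRNA with its processome partners, had 93.3 to 116 CPM in cluster 4 (median 101) and 50.5 to 59.1 in the other cells (median 55.9). The remaining processome and 40S factors Rrp9, Heatr1, Wdr75, Utp20, Rrp12, Noc4l and Nop14 lay between 0.99 and 1.57. Heatr1, with 808 UMIs in cluster 4, varied most between libraries (SD 0.31).

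The 11 members of the large subunit pathway had a median ratio of 1.34. Noc2l (chr4:156236010-156247616, plus strand), which works with Noc3l in moving pre-60S particles, had 98.9 to 140 CPM in cluster 4 (median 117) and 40.3 to 51.3 in the other cells (median 46.1), a ratio of 1.34 ± 0.12. Nip7 (chr8:107056877-107060931, plus strand), a 60S assembly factor, had 107 to 135 CPM in cluster 4 (median 119) and 43.8 to 53.3 in the other cells (median 51.0), a ratio of 1.24 ± 0.12. Nop16 (chr13:54584185-54590090, minus strand) had 69.9 to 87.4 CPM in cluster 4 (median 82.0) and 16.1 to 20.9 in the other cells (median 19.0), and its second cluster, 5, had a mean of 28.5. The RNA methyltransferase Nop2 had a ratio of 1.67 ± 0.16, the 5S RNP factor Rrs1 1.51 ± 0.13, Noc3l 1.46 ± 0.19 and the methyltransferase Ftsj3 1.43 ± 0.10. The PeBoW complex of Pes1, Bop1 and Wdr12, which is needed to cut the 60S precursor, had smaller ratios: 0.89, 1.13 and 1.20. Rrp1b had 1.18 ± 0.17.

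The size of the difference moved with the cells chosen as the rest, and its direction did not for any of the 37 genes. Set against clusters 3 and 5 alone, the median ratio was 1.00 and 20 members reached 1. Against cluster 7 alone, an alternative added with the data in view, it was 1.03 with 19 members. Against clusters 0, 1 and 8 it was 1.97 with all 37. With each cell thinned to 2000 UMIs it was 1.66 with 34. The median depth per cell was 23987.5 UMIs in cluster 3, 18351 in cluster 5 and 9648 in cluster 4. The part of depth in the members' difference was not tested.

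Genes outside the list showed how far the pattern reached. Of 117 other ribosome biogenesis genes measured, 107 were higher in cluster 4 in 6 of 6 libraries, 3 were lower in 6 of 6, and 40 had a ratio of at least 1; their median was 0.84. The largest were Ppan at 2.16 ± 0.24, Rrp15 at 1.89 ± 0.10, Mdn1 at 1.85 ± 0.24 and Nle1 at 1.75 ± 0.21, all of them 60S assembly factors. Of 37 other growth genes known as Myc targets, 33 were higher in 6 of 6 libraries, with a median of 0.75. They were led by the spermidine synthase Srm (2.01 ± 0.20), the transferrin receptor Tfrc (1.61 ± 0.23), the DNA repair enzyme Apex1 (1.49 ± 0.10) and the CTP synthase Ctps (1.21 ± 0.23). Of 12 genes of the Myc network, 4 were higher and 4 lower in 6 of 6 libraries, with a median of -0.03. Mxd3, an antagonist of Myc, had the lowest value among these 12, -3.12 ± 0.40. Mxd3 was also a leading gene of cluster 3, with a mean log2 ratio of 4.39 between cluster 3 and the rest. The cells of cluster 3 are among the other cells here, and their part in the low value of Mxd3 was not tested.

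The ribosome's own proteins did not share the pattern. Of 85 cytoplasmic ribosomal protein genes, 48 were lower in cluster 4 in 6 of 6 libraries and 7 were higher, with a median of -0.11. They made up 28.1% ± 0.711 of the UMIs of cluster 4, near the 28.3% of cluster 3 and 29.4% of cluster 0, and 43.9% of cluster 7. The ribosomal protein-like gene Rpl7l1, at 1.03 ± 0.17, was the only gene of these 85 past 1. Of 77 mitochondrial ribosomal protein genes, 36 were higher and 8 lower in 6 of 6 libraries, with a median of 0.17.

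**Figure D3:**
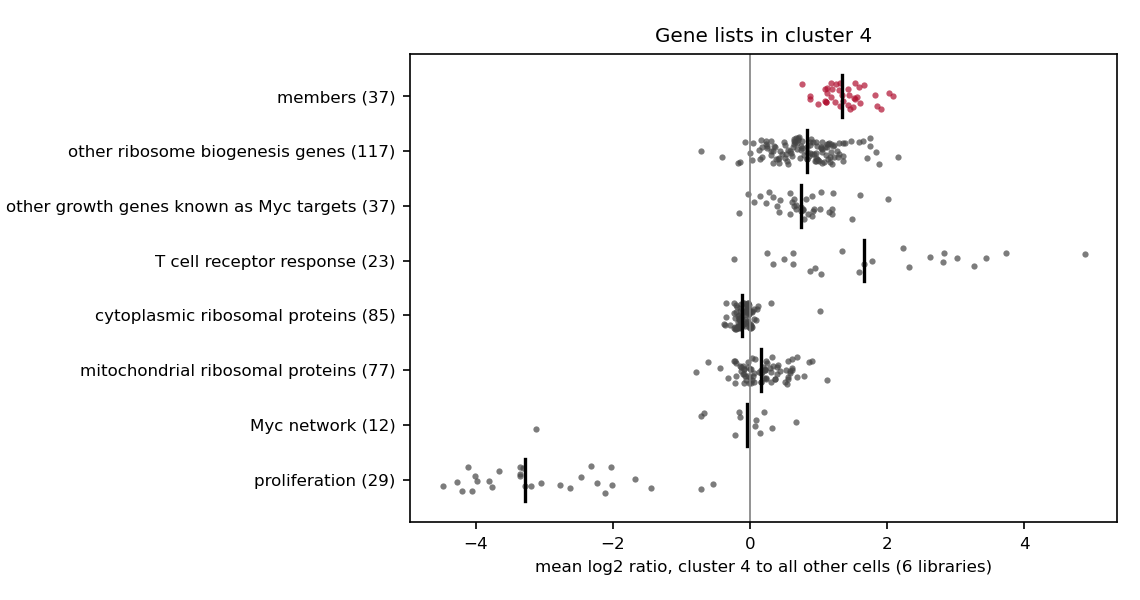
Mean log2 ratio between cluster 4 and all other cells over 6 libraries, on CPM + 1, for the 37 members (red) and 7 other gene lists (grey); each point is a gene and the black bar is the list's median. The members' median is 1.34, that of other ribosome biogenesis genes 0.84, that of cytoplasmic ribosomal proteins -0.11 and that of proliferation genes -3.28.

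Genes of 2 other processes differed between cluster 4 and the pooled other cells. Of 23 genes of the T cell receptor response, 20 were higher in 6 of 6 libraries, with a median of 1.66, led by Il2 (4.89 ± 0.43), Ccl4 (3.74 ± 0.43), Xcl1 (3.45 ± 0.59) and Ccl3 (3.27 ± 0.46), which also define the cluster. All 29 proliferation genes were lower in 6 of 6 libraries, with a median of -3.28 and values down to -4.48 for Cenpf. These genes took 0.0390% of the UMIs of cluster 4 on average. Clusters 0, 1, 2, 7, 8, 9 and 10 were alike, at 0.0304% to 0.0574%. The dividing clusters 3 and 5 had 0.596% and 0.230%, and the shallow cluster 6 had 0.189%. The 16 immediate early and dissociation genes had a median of 0.33, with 6 higher and 4 lower in 6 of 6. Atf3 had the largest of these, 1.88 ± 0.34. The 13 mitochondrially encoded genes were all lower in 6 of 6, with a median of -0.20. The other cells include clusters 6 and 10, whose cells had median mitochondrial shares of 30.03% and 20.3%. In the remaining clusters the median share ran from 3.70% to 4.94%, with 4.05% in cluster 4. The part of clusters 6 and 10 in the low values of these 13 genes was not tested.

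Markers of other cell types stayed low in cluster 4. The 12 myeloid genes summed to 22.1 to 39.4 CPM there and 20.7 to 49.7 CPM in the other cells, and none was higher in 6 of 6 libraries. The 3 B cell genes summed to 2.57 to 4.75 CPM, with Pax5 at 0, and the 4 epithelial genes to 2.38 to 9.52 CPM, with Krt7 at 0. The 5 fibroblast and endothelial genes summed to 4.83 to 9.53 CPM, with Col1a2 and Dcn at 0. The 7 MHC class II and dendritic genes summed to 75.3 to 171 CPM against 56.5 to 158, 1 of them higher in 6 of 6: Itgax at 1.23 ± 0.10. The 6 CD4 and regulatory T cell genes summed to 60.6 to 114 CPM in cluster 4 against 140 to 265 in the other cells, with 1 higher in 6 of 6, Cd40lg at 2.23 ± 0.57, which is also on the list of the receptor response. By cluster this sum averaged 78.7 CPM in cluster 4, 79.0 in cluster 1 and 713 in cluster 2, the highest. The part of other cell types in the members' difference was not tested.

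The members varied together over the 66 sums of a library and a cluster. Pearson's r of each member with the mean of the other members, on standardised log2(CPM + 1), ran from 0.66 for Heatr1 to 0.96 for Nop58, and Myc had 0.75. Sums of 1 library share depth and sums of 1 cluster share cell state, so these values are descriptions. Among the 8585 genes outside the list with a mean of at least 5 CPM, the 10 with the highest r to the members' mean were Srm (0.95), Gtpbp4, Nsun2, Ppid, Cct3, Rcl1, Abce1, C1qbp, Apex1 and Eprs (0.91). Gtpbp4 and Rcl1 belong to the list of other ribosome biogenesis genes, and 16 of the top 50 did. Nsun2 is an RNA methyltransferase, Cct3 a chaperonin subunit, Abce1 a ribosome recycling factor and Eprs a transfer RNA synthetase.

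Myc RNA was detected in a minority of cells, also in cluster 4. After each cell was thinned to 2000 UMIs, the share of cells of cluster 4 with a Myc UMI was lowest at 12.9%, median 15.6% and highest at 20.3% over the libraries. In cluster 7 the libraries spanned 5.04% to 8.18%, in cluster 5 3.61% to 5.45% and in cluster 0 0.613% to 1.88%. The highest share in any library outside cluster 4 was 12.1%, in cluster 9 of female library 6. Of the 2442 cells of cluster 4, 2406 were deep enough, and with 194 to 693 a library the exact 95% binomial interval was widest in female library 6, at 14.9% to 26.6%. All intervals cover counting error only, and no cell group known to lack Myc was at hand to give a background share. Without thinning the mean share was 40.6% in cluster 4 and 6.43% in cluster 0, so it is a rate of detection and not the share of cells that express Myc.

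Cells of cluster 4 in which Myc was detected were then compared with those in which it was not, at the same 2000 UMIs per cell. The comparison asked whether the other members were higher where Myc RNA was found, within 1 cluster. Of the 36 other members 35 were tested (Rrp12 did not pass the filter on low counts), and 6 rose in the Myc-positive cells: Nop16, Gnl3, Nolc1, Nop56, Ddx21 and Ncl. None fell. By this test 2.57% of all 4755 genes were called in either direction and 1.75% were higher. Among the members 29 of 35 had a positive log2 fold change, with a median of 0.29 against -0.01 over all genes. The cells were 25 to 119 Myc-positive and 157 to 574 Myc-negative ones per library, 380 and 2026 in all, and cluster 4 alone had at least 20 of each in every library.

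Nop16 had 75.0 to 200 CPM in the Myc-positive cells (median 131) and 70.6 to 92.4 in the Myc-negative cells (median 76.1). It was higher in 5 of 6 libraries, with a log2 fold change of 0.73 ± 0.19 (SE) and an adjusted p of 0.0139 by edgeR's quasi-likelihood test with the library as a block. Gnl3 had 160 to 250 CPM (median 234) against 123 to 184 (median 145), higher in 6 of 6, with 0.57 ± 0.14 and an adjusted p of 0.0102 by edgeR. Nolc1 had 161 to 312.5 CPM (median 270) against 139 to 216 (median 163), higher in 6 of 6, with 0.51 ± 0.13 and an adjusted p of 0.0138 by edgeR. In each of these 3 the ranges of the classes overlapped, and the difference showed within libraries.

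Nop56 had 303 to 520 CPM (median 431) against 257 to 365 (median 299), higher in 6 of 6, with 0.44 ± 0.10 and an adjusted p of 0.00574 by edgeR. Ddx21 had 303 to 625 CPM (median 452) against 267 to 453 (median 339), higher in 5 of 6, with 0.35 ± 0.10 and an adjusted p of 0.0480 by edgeR. Ncl had 1629 to 2088 CPM (median 1842) against 1283 to 1894 (median 1580), higher in 5 of 6, with 0.24 ± 0.06 and an adjusted p of 0.00578 by edgeR. The largest change among the 35, Noc3l at 0.76 ± 0.28, and that of Polr1b at 0.69 ± 0.33 were not called, although both were higher in 6 of 6 libraries (adjusted p of 0.141 and 0.331 by edgeR). Other members without a call included Npm1 at 0.05 ± 0.05, Fbl at -0.11 ± 0.11 and Wdr75 at -0.26 ± 0.24.

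**Figure D4:**
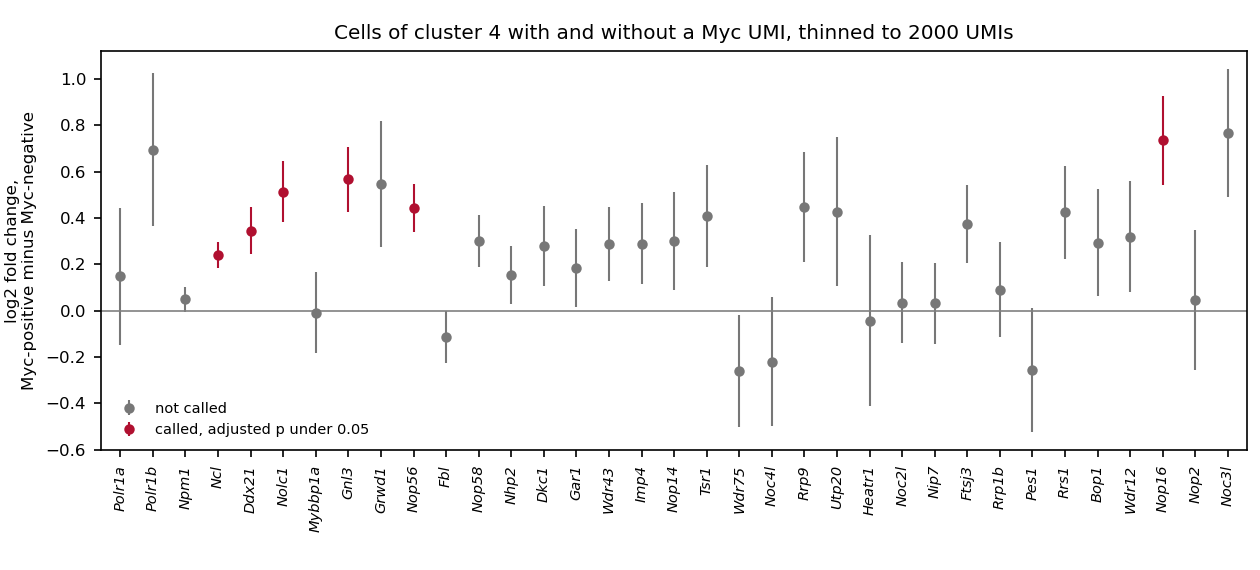
Log2 fold change, Myc-positive minus Myc-negative cells of cluster 4 at 2000 UMIs per cell, for the 35 members tested by edgeR over 6 libraries with the library as a block; bars are standard errors and red marks an adjusted p under 0.05. The 6 red points lie between 0.24 (Ncl) and 0.73 (Nop16), and 6 of the 35 points lie below 0.

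The number of these calls depended on the setting. It was 8 by limma-voom, 5 with library totals in place of TMM, 2 by DESeq2 and 0 with no filter on low counts, and 16 at 5000 UMIs per cell. In that order 5.24%, 2.48%, 0.946%, 1.06% and 7.02% of all genes were called. By DESeq2 13 of the 35 members had no adjusted p, and genes without one are taken as not called. Leaving out male library 4 left 1 call, and leaving out female library 2 or female library 5 left 3. Of all genes 1.87%, 2.08% and 1.49% were called then. Other genes differed between the same cells: 10 of 21 T cell receptor response genes rose, with a median of 0.64 over the 21, led by Egr2 (1.23 ± 0.24), Nfkbid (1.18 ± 0.11), Nr4a1 (1.14 ± 0.08) and Nr4a2 (0.88 ± 0.07). Of 82 cytoplasmic ribosomal protein genes 6 fell and none rose, with the largest change in Rps2 at -0.23 ± 0.04, and 3 of 12 mitochondrially encoded genes fell. Of 107 other ribosome biogenesis genes 1 rose, Nob1 at 0.81 ± 0.23, with a median of 0.16 over the 107. The part of the receptor response in the members' difference was not tested.

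Male and female cells were compared to ask whether the sex of the host goes with a different level of the members. Summed over all cells outside cluster 2, whose leading genes are killer lectin receptors and which had the lowest Cd8b1, no member passed the test (0 of 37). Of all 12194 genes 0.0902% passed in either direction and 0.041% were higher in males. The log2 fold change, male minus female, was positive for 36 of 37 members, with a median of 0.13 against 0.0042 over all genes. DESeq2 and limma-voom also called 0, and 1 member had an unadjusted p under 0.05 by edgeR, against 8.36% of all genes. That was Nop56, with 193, 151 and 161 CPM in male libraries 1, 3 and 4 and 148, 137 and 148 in female libraries 2, 5 and 6. The sexes did not overlap for Nop56, and its log2 fold change was 0.23 ± 0.10 with an adjusted p of 0.571 by edgeR. It was picked by its p, so the lack of overlap adds no support. The share of all genes without overlap was not counted. Dkc1 (0.25 ± 0.12) and Gnl3 (0.24 ± 0.13), next by p, overlapped between the sexes and did not pass.

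In male library 1 the 36 members without Myc took 0.914% of the UMIs of cluster 4, against 0.748% and 0.794% in the other 2 male libraries and 0.677% to 0.825% in the female ones. Without it 24 of 37 log2 fold changes over all cells were positive, with a median of 0.03, and without female library 5 27 were, with a median of 0.07. Without male library 3 all 37 were positive, with a median of 0.21, and with the same mix of clusters in every library 36 were, with a median of 0.17. The p-values measure the spread between 3 libraries per sex.

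**Figure D5:**
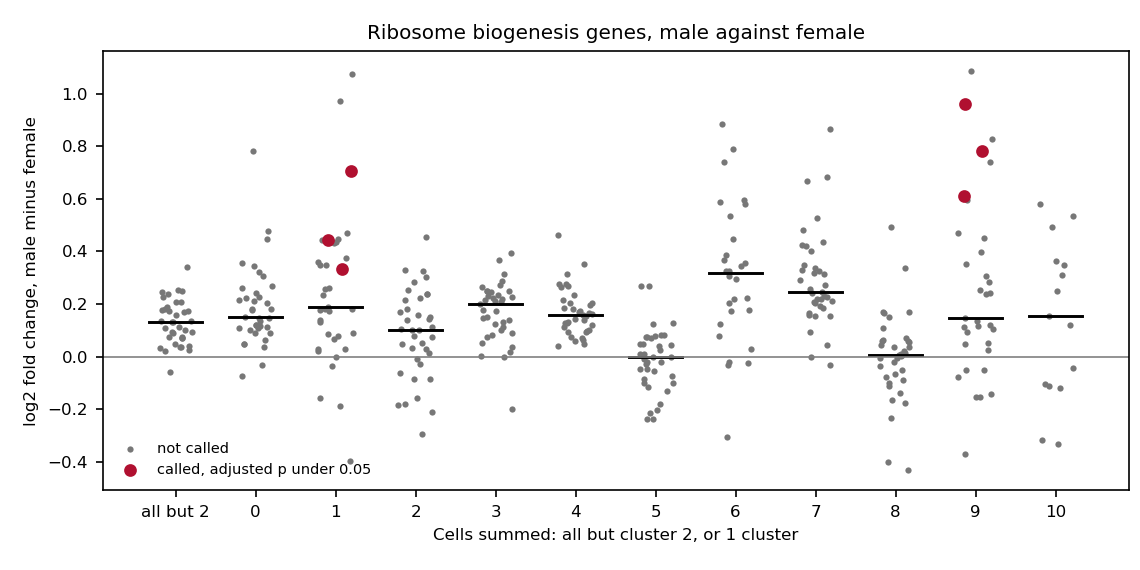
Log2 fold change, male minus female, of the members tested by edgeR (points) in all cells outside cluster 2 and in each cluster, 3 libraries per sex; the black bar is the median of the members tested and red marks an adjusted p under 0.05. The red points are Gnl3, Nop56 and Npm1 in cluster 1 and Dkc1, Nop56 and Nolc1 in cluster 9.

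Within cluster 4 no member passed (0 of 37, against 0.105% of 9499 genes in either direction and 0.0421% higher in males), and DESeq2 and limma-voom called 0 too. All 37 log2 fold changes were positive, with a median of 0.16 against -0.00084 over all genes, and 4 had an unadjusted p under 0.05 by edgeR, against 4.54% of all genes: Wdr12, Nop56, Gnl3 and Nop2. Wdr12 had 68.7, 59.6 and 58.8 CPM in the male libraries and 42.9, 46.6 and 58.0 in the female ones. Its log2 fold change was 0.35 ± 0.12, with an adjusted p of 0.986 by edgeR. Nop56 followed at 0.28 ± 0.10, Gnl3 at 0.28 ± 0.11 and Nop2 at 0.31 ± 0.14. Myc had 106, 92.2 and 101 CPM in males and 111, 76.3 and 86.5 in females, which overlapped. Without female library 5 26 of the 37 were positive, with a median of 0.08, and without male library 1 33 were, with a median of 0.07. Without female library 6 all 37 were positive, with a median of 0.23, and 16 had an unadjusted p under 0.05 by edgeR. By adjusted p 0 of the 37 were called in that setting, against 0.206% of all genes. The share of all genes at the unadjusted threshold was not counted there.

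Whether the sex difference in cluster 4 differed from that in the other cells was tested as an interaction. No member passed by edgeR, DESeq2 or limma-voom, and none of 11427 genes did by edgeR (0%). By edgeR 2 members, Nhp2 and Rrp1b, had an unadjusted p under 0.05, against 5.28% of all genes, and the smallest adjusted p among the members was 0.929.

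In cluster 1, led by Itgae, S1pr5 and S1pr1, 3 members rose in males. By this test 3.8% of its 9234 genes were called in either direction and 1.6% were higher in males. Gnl3 had 31.5, 32.6 and 30.1 CPM in males and 20.2, 18.8 and 20.1 in females, a log2 fold change of 0.70 ± 0.15 with an adjusted p of 0.0122 by edgeR. Nop56 had 125, 145 and 127 CPM in males and 96.5, 95.2 and 107 in females, 0.44 ± 0.11 with an adjusted p of 0.0223 by edgeR. Npm1 had 1142, 1159 and 1104 CPM in males and 885, 939 and 937 in females, 0.33 ± 0.09 with an adjusted p of 0.0434 by edgeR. The sexes did not overlap for any of the 3. They were picked by their p, so this adds no support, and the share of all genes without overlap was not counted.

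Myc itself, at 0.97 ± 0.32 in cluster 1, did not pass (adjusted p of 0.141 by edgeR), with 20.8, 27.3 and 15.0 CPM in males and 15.9, 6.82 and 10.98 in females. The count of 3 was 4 by DESeq2 and by limma-voom, with 2.92% and 3.74% of all genes called. Leaving out female library 5 or male library 1 gave 0 calls, with 0.699% and 1.33% of all genes called. Leaving out male library 3 gave 1 and female library 2 gave 2, with 1.89% and 2.09% of all genes. Leaving out female library 6 or male library 4 gave 6, with 7.35% and 4.31% of all genes. In the same cluster 14 of 84 cytoplasmic ribosomal protein genes rose in males and none fell, with a median of 0.24, and these genes took 32.2% ± 1.61 of the UMIs in males and 27.8% ± 0.494 in females. Of 21 receptor response genes 2 fell, and of 13 mitochondrially encoded genes 2 rose (mt-Nd1 and mt-Nd2), with a median of 0.13. Their part in the members' difference was not tested.

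Cluster 9, led by the interferon-induced genes Ifit1, Ifit3 and Rsad2, had 33 members tested, and 3 rose in males. Of its 8030 genes 3.41% were called in either direction and 1.12% were higher in males. Dkc1 had 51.8, 35.8 and 34.6 CPM in males and 19.9, 21.6 and 24.5 in females, 0.96 ± 0.22 with an adjusted p of 0.0115 by edgeR. Nop56 had 148, 95.9 and 109 CPM in males and 77.3, 75.5 and 90.8 in females, 0.61 ± 0.16 with an adjusted p of 0.0319 by edgeR. Nolc1 had 49.97, 34.1 and 33.7 CPM in males and 19.9, 26.3 and 24.5 in females, 0.78 ± 0.22 with an adjusted p of 0.0422 by edgeR. Male library 1 was the highest for all 3.

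Of these 3 members DESeq2 called 0, limma-voom 2 and edgeR with library totals 1, with 2.17%, 3.46% and 3.85% of all genes called. By DESeq2 5 of the 33 members had no adjusted p, and genes without one are taken as not called. No member was called without female library 5 or without male library 1, with 0.832% and 1.39% of all genes called. Without male library 1, 17 of the 33 log2 fold changes were positive. The count was 1 without female library 2 and 2 without female library 6 or male library 3. In that order 3.74%, 4.58% and 1.91% of all genes were called. In cluster 9 10 of 83 cytoplasmic ribosomal protein genes rose in males, and 7 of 19 T cell receptor response genes fell. Of 13 mitochondrially encoded genes 2 rose (mt-Nd2 and mt-Nd5), with a median of 0.34. Male minus female values of the receptor response had a median of -0.86 there, and the part of these lists in the members' difference was not tested.

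In the remaining clusters no member passed by edgeR, DESeq2 or limma-voom. Cluster 7 came closest: 35 of 37 log2 fold changes were positive, with a median of 0.24, and 12 had an unadjusted p under 0.05 by edgeR, against 6.88% of its genes. By adjusted p 0.168% of its genes were called. Ftsj3, with 62.6, 58.6 and 60.3 CPM in males and 40.01, 29.0 and 50.3 in females, had 0.67 ± 0.17 and an adjusted p of 0.131 by edgeR. Rrs1 (0.68 ± 0.19) and Fbl (0.42 ± 0.12) followed, and the sexes did not overlap for any of these 3. They were picked by their p, so the lack of overlap adds no support, and the share of all genes without overlap was not counted. In clusters 5 and 8, 17 and 21 of 37 were positive, with medians of -0.00245 and 0.0059, with 1 and 0 members at an unadjusted p under 0.05 by edgeR, against 3.99% and 3.36% of genes. By adjusted p 0.0979% and 0.0968% of genes were called there. In clusters 0, 2, 3, 6 and 10 it was 0.15, 0.10, 0.20, 0.32 and 0.16, with 7, 1, 6, 4 and 1 members at an unadjusted p under 0.05 by edgeR, against 4.61%, 6.46%, 5.48%, 4.76% and 5.41% of genes. By adjusted p 0.139%, 0.358%, 0.142%, 0.181% and 0.274% of genes were called there. In the shallow clusters 6 and 10 only 28 and 15 members passed the filter on low counts.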

How the data were processed

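Per the submitters' processing notes, Cell Ranger, Seurat and the build mm10 were used; no versions are listed. The deposited table holds raw UMI counts per gene and cell for all libraries, and the deposited metadata gives the sex and the authors' cluster per cell, and a UMI count that equals the column sum. How cells were filtered and doublets treated is not given in the sources used here, and no doublets were removed here. Cells were assigned to libraries by the number in their barcode suffix (1, 3 and 4 male; 2, 5 and 6 female). Counts were summed per library and cluster, and CPM is the sum scaled to 1000000 UMIs. A pseudocount of 1 CPM was used. Sums were tested with edgeR 4.0.16 in R 4.3.3 (quasi-likelihood, robust, filterByExpr, TMM), with Benjamini-Hochberg adjustment over all genes tested and a threshold of 0.05, where every library had at least 20 cells. DESeq2 1.42.0 and limma-voom (limma 3.58.1) were alternatives. The tests were run on simulated counts with planted changes larger than the members' median changes in any comparison, so the simulation does not bear on changes of that smaller size. Positions came from GENCODE M21 by symbol.

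The members and the gene lists were chosen with earlier results of these data known. Values per library are given for Myc, for the 2 members of highest mean level in each other role and for the 3 largest and 3 smallest ratios. In a sex comparison the called members, or the 3 of smallest p, are named, in the Myc comparison the 5 largest called changes, and from other lists up to 4 of the largest values. Ncl, Noc3l, Polr1b, Fbl, Wdr75 and Npm1 in the Myc comparison, Nop2 and Myc in the sex comparisons and the genes at 0 were named after their values were seen.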

Additional observations from a re-analysis of the deposited data

How the results depend on the processing

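No member turned its direction between cluster 4 and the rest under any alternative. The median log2 ratio of 1.34 became 1.61 with the CPM of each cell averaged, 1.66 with cells thinned to 2000 UMIs, 1.49 with equal weight for the other 10 clusters, 1.97 against clusters 0, 1 and 8, 1.00 against clusters 3 and 5 (20 members past 1) and 1.03 against cluster 7 (19 members), and ran from 1.33 to 1.38 with each library left out. The share of cells with a Myc UMI was 8.93%, 26.9% and 40.6% in cluster 4 and 0.561%, 3.03% and 6.43% in cluster 0 at 1000 UMIs, at 5000 UMIs and without thinning. With no filter on low counts the members called were 6 in cluster 1, 1 in cluster 7, 5 in cluster 9 and 0 in the Myc comparison, which had 2 by DESeq2 and 16 at 5000 UMIs. Without the filter 4.83%, 0.314%, 3.82% and 1.06% of all genes were called in these comparisons. In the Myc comparison 0.946% were called by DESeq2 and 7.02% at 5000 UMIs. Cluster 9 had 0 by DESeq2 and 1 with library totals. With each library left out the counts ran from 0 to 6 in cluster 1, 0 to 1 in cluster 7, 0 to 4 in cluster 9 and 1 to 6 in the Myc comparison. The shares of all genes called ran, in that order, from 0.699% to 7.35%, 0.100% to 0.587%, 0.832% to 4.58% and 1.49% to 2.82%. Over the tests of the members named by rule, 413 values under an alternative kept their side of the threshold, 51 lost the call and 1 gained it. The 413 include members that were not called and stayed so. Only a member called at first could lose a call, so the 51 losses all fell on such members. These were 3 in cluster 1, 3 in cluster 9 and 6 in the Myc comparison. How many of the 413 values were theirs was not counted. Members not named by rule gained calls too, as 5 of the 16 at 5000 UMIs were among the original 6. The cause of these changes in calls was not tested. The Myc comparison at 1000 UMIs and that with at least 2 Myc UMIs were not run, because the smallest class held 12 and 7 cells. No paired analysis was possible because the library numbers could not be matched to the replicate numbers of the labels. Depth limits clusters 6 and 10 and every member of low level in the Myc comparison.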
